A study of Drosophila melanogaster with 27 samples.

Results

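The transcripts described here encode the machinery of the synaptic vesicle cycle and of the active zone, the patch of presynaptic membrane where neurotransmitter is released. They were chosen by name from a list of 35 Drosophila symbols, and 31 of these head a row in the deposited table of 11923 genes. The 31 genes fall into 9 of the active zone, 16 of exocytosis and 6 of endocytosis. The symbols Caps, stnA, stnB and Eps-15 have no row of that name and were not analysed here. The gene Cadps, one of 2 genes for which the RefSeq names list Caps as a synonym, is given beside the members and is not counted among them.

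The series covers diet, fat body overexpression and age in heads of female Drosophila melanogaster, with 27 samples in 9 groups. The table used here holds 6 libraries of polyadenylated RNA from Oregon-R flies, a wild-type strain held at 25 °C on the diet that the labels call CD. Old flies, aged 50 days, gave 3 libraries, and young flies, aged 3 days, gave the other 3. Each library is a pool of 20 heads, so animals within a library cannot be told apart, and the remaining 21 samples are not used here. Ages in between were not sampled, so the time course of a change is not known. The comparison asks how presynaptic transcripts differ between old and young heads.

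Synaptic vesicles are filled with transmitter, carried to the active zone, docked and primed. They fuse when calcium enters, through SNARE proteins that zip vesicle and plasma membrane together, and their membrane is then retrieved by clathrin and dynamin. Scaffold proteins of the active zone hold calcium channels next to primed vesicles. Neurons of the brain and photoreceptors are among the cells of the fly head that make these transcripts, and other cells may make some of them. The libraries do not show which cells they came from.

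Values are FPKM, which count sequenced fragments relative to gene length and to the depth of the library. For tests and ratios of means, each library was multiplied by a factor that takes the bulk of genes as unchanged, so every direction is relative to that bulk. The factors ran from 0.948 to 1.11. A gene counts as changed at an adjusted p under 0.05 in limma's test of log2(FPKM + 1), adjusted by the Benjamini-Hochberg method over all 8742 genes whose mean reached 1 FPKM. All 31 members passed that filter.

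The summed values were 504504 to 539645 FPKM in the 50-day libraries and 427992 to 502587 FPKM in the 3-day libraries. The depth is not stated. The spacing of the lowest values points to a depth between about 17000000 and 22000000 fragments, which is too coarse for an interval on a single value. Pearson's r of log2 values was 0.985 to 0.991 between libraries of an age and 0.895 to 0.940 between ages. Photoreceptor and neuronal markers were present in every library, as a head should give. The opsin ninaE had 12503 to 16014 FPKM at 50 days and 13909 to 16797 FPKM at 3 days, and the neuronal gene elav had 15.1 to 17.5 FPKM at 50 days and 22.4 to 24.6 FPKM at 3 days.

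All 31 members had a lower mean level at 50 days, and 26 of them passed the test, all lower. Over all genes tested, 20.8% passed the test in that direction, 18.3% in the other and 39.1% in either. The median log2 change of the members was -0.48, against -0.0011 over all genes tested. The ratio of the 50-day mean to the 3-day mean ran from 0.523 for Syngr to 0.940 for Liprin-alpha. In 28 of the 31 genes every 50-day library lay below every 3-day library, which held for 28.3% of all genes tested. The summed level of the 31 genes was 1922, 1991 and 2045 scaled FPKM in the 50-day libraries and 3158, 2759 and 2757 scaled FPKM in the 3-day libraries. The sums of the ages did not overlap. In bulk RNA, fewer neurons, less of these transcripts in each neuron and less of them in other cells cannot be told apart.

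**Figure D1:**
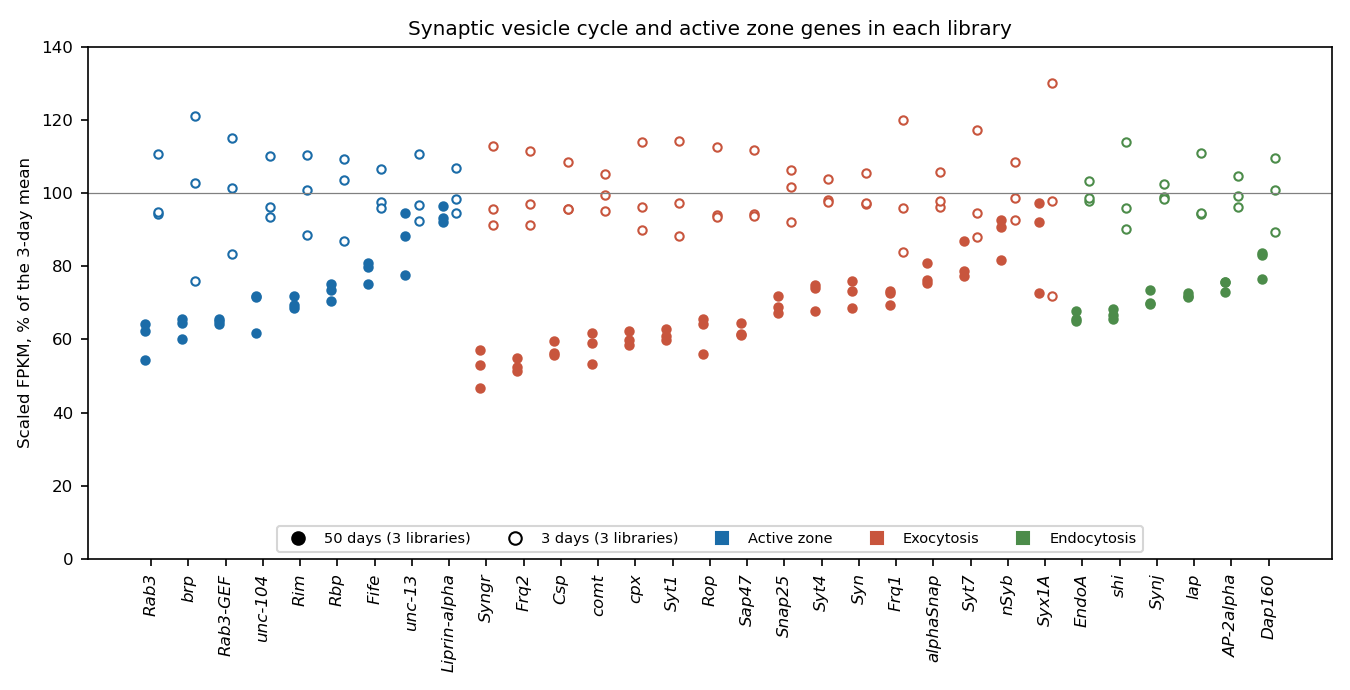
Level of each of the 31 genes in each library, as a percentage of the gene's mean over the 3-day libraries after library scaling; filled points are 50-day libraries, open points 3-day libraries, and colours mark active zone, exocytosis and endocytosis. Filled points lie below all open points in 28 genes, the exceptions being unc-13, Liprin-alpha and Syx1A.

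Within an age, many members shared the same highest or lowest library. After scaling, 3-day replicate 1 was the highest 3-day library in 30 of the 31 genes, and 3-day replicate 3 was the lowest in 21. Among the 50-day libraries, replicate 1 was the lowest in 20 genes and replicate 3 the highest in 16. The same count over all genes was not made, so it is not known whether this order is particular to the members. The summed muscle markers were also highest in 3-day replicate 1 of that age, at 2658 scaled FPKM against 1577 and 2082 in replicates 2 and 3. Summed neuronal markers were highest there too, at 678 scaled FPKM against 563.5 and 535, as were the glial and hemocyte sums. The photoreceptor and fat body sums were lowest in that library. The part of these differences in the result was not tested. Without 3-day replicate 1, 24 members were called lower, beside 30.5% of all genes tested called in either direction. Over the 6 fits that left out a library the count ran from 23 to 27 members, beside 29.9% to 42.6% of all genes.

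Lower levels were found in all 3 parts of the cycle. In the active zone 7 of 9 genes were called lower, with a median log2 change of -0.48. In exocytosis 13 of 16 were called lower, with a median of -0.60. In endocytosis all 6 were called lower, with a median of -0.47. Over all genes tested, 20.8% were called lower. The median level of a 50-day library, as a percentage of the 3-day mean, was 68.5% to 72.0% over active zone genes, 64.6% to 68.8% over exocytosis genes and 70.7% to 72.8% over endocytosis genes. No test was made between the parts. Across the 31 genes, the log2 change had Spearman's rho of 0.18 with exon length and -0.34 with the 3-day level. These are descriptions over genes measured in the same 6 libraries, with no p-value.

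**Figure D2:**
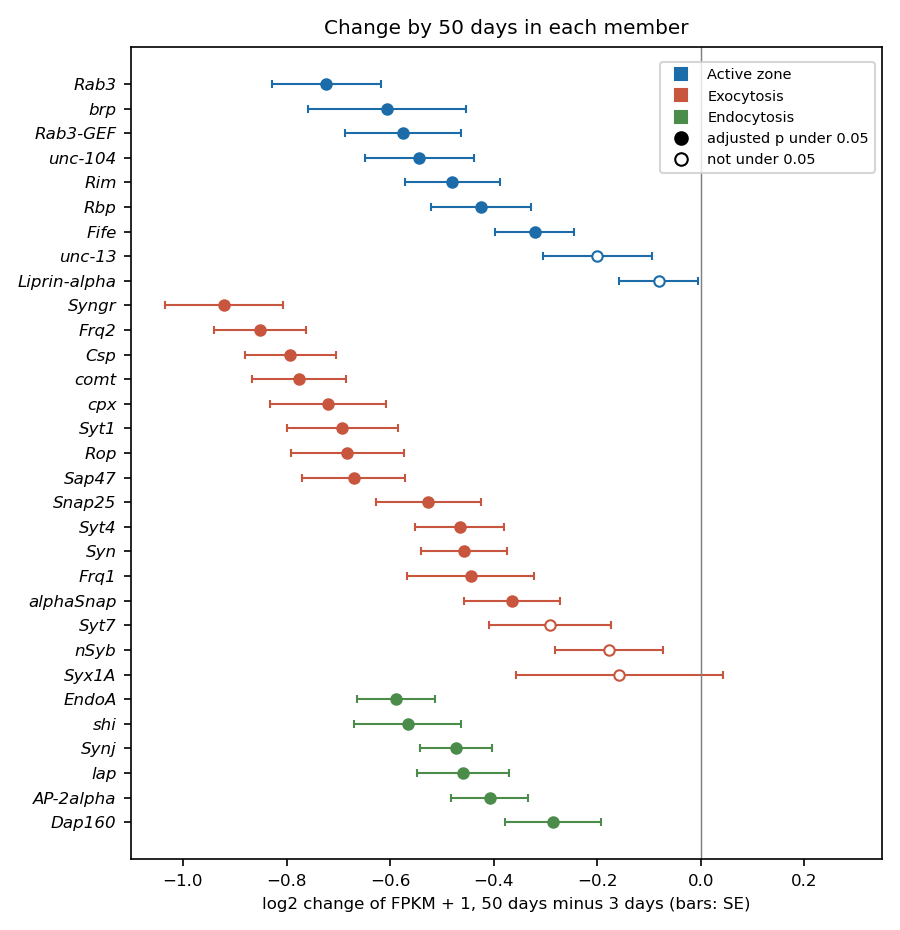
Log2 change of FPKM + 1, 50 days minus 3 days, with its standard error, for each gene by part; filled points have an adjusted p under 0.05. Changes run from -0.92 in Syngr to -0.081 in Liprin-alpha, and the 5 open points are unc-13, Liprin-alpha, Syt7, nSyb and Syx1A.

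The active zone is built on a few large scaffold proteins. brp encodes Bruchpilot, the ELKS-family protein of the electron-dense T-bar, and lies on chromosome arm 2R. It had 16.3, 19.2 and 19.6 FPKM in the 50-day libraries and 37.3, 32.6 and 23.6 FPKM in the 3-day libraries. The ages did not overlap, although 3-day replicate 3 came close to the old heads. The log2 change was -0.61 ± 0.15 SE (adjusted p 0.0149, limma). The call was lost without 50-day replicate 1 (adjusted p 0.0517) and without 3-day replicate 2 (adjusted p 0.0511), where the change was -0.57 each time.

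Rim encodes a scaffold that binds Rab3 and calcium channels. It had 11.7, 13.5 and 13.1 FPKM at 50 days and 21.5, 20.2 and 17.3 FPKM at 3 days (-0.48 ± 0.092 SE on the log2 scale, limma adjusted p 0.00464). Rbp encodes the RIM-binding protein, which links calcium channels to the scaffold. It had 13.6, 15.9 and 15.7 FPKM at 50 days and 24.01, 23.3 and 19.2 FPKM at 3 days (-0.42 ± 0.096 SE on the log2 scale, limma adjusted p 0.00961). In both genes every old library was below every young library. Fife, a Piccolo-RIM-related scaffold, had 9.83, 11.5 and 11.5 FPKM at 50 days and 15.8, 14.8 and 14.3 FPKM at 3 days. Its log2 change was -0.32 ± 0.076 SE (adjusted p 0.0118, limma), and it fell short once the trend on gene length was removed (-0.16, adjusted p 0.104).

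The other pair of active zone genes did not pass the test. unc-13 encodes the factor that primes vesicles for fusion. It had 39.8, 35.6 and 40.9 FPKM at 50 days and 52.9, 47.4 and 44.3 FPKM at 3 days. The raw values of the ages were apart, but the scaled values overlapped, and the log2 change was -0.20 ± 0.105 SE (adjusted p 0.168, limma). In the BDGP6.54 annotation unc-13 spans positions 867824 to 912331 on chromosome 4. Of its exon bases, 25.2% are shared with genes on the other strand and 6.0% with genes on the same strand. How strand was handled is not given in the sources used here, so reads from genes on the other strand cannot be told apart. Strand cannot separate reads in the bases shared on the same strand. Liprin-alpha encodes a scaffold that organises the presynaptic site and the delivery of its cargo. It averaged 11.3 ± 0.712 FPKM at 50 days and 12.9 ± 0.766 FPKM at 3 days (SD over 3 libraries each) with a log2 change of -0.081 (adjusted p 0.428, limma). Both genes turned to a change above 0 when the length trend was removed, at 0.0077 for unc-13 and 0.057 for Liprin-alpha.

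Vesicles reach the active zone by transport and are marked there by a small GTPase. Rab3, the GTPase of synaptic vesicles, had 55.3, 71.5 and 70.1 FPKM at 50 days and 128, 112 and 110.5 FPKM at 3 days. No library of the ages overlapped, and the log2 change of -0.72 ± 0.105 SE (adjusted p 0.00143, limma) was the lowest of the active zone part. Rab3-GEF, the exchange factor that activates Rab3, had 12.2, 13.5 and 13.8 FPKM at 50 days and 24.9, 22.5 and 18.1 FPKM at 3 days (-0.58 ± 0.11 SE on the log2 scale, limma adjusted p 0.00513). unc-104 encodes the kinesin that carries synaptic vesicle precursors along axons. It had 72.9, 92.5 and 93.6 FPKM at 50 days and 148, 133 and 126 FPKM at 3 days. All 3-day libraries lay above all 50-day libraries, and the log2 change was -0.54 ± 0.105 SE (adjusted p 0.00485, limma).

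Of the 3 fusion SNAREs, 1 was called lower. Snap25, a SNARE of the plasma membrane, was the most abundant member per length at both ages. It had 199, 213 and 229.8 FPKM at 50 days and 335, 311 and 352 FPKM at 3 days, without overlap (-0.53 ± 0.10 SE on the log2 scale, limma adjusted p 0.00481). nSyb encodes neuronal synaptobrevin, the SNARE of the vesicle. It had 159.7, 194 and 199.9 FPKM at 50 days and 241, 212 and 220.5 FPKM at 3 days. All old libraries were below all young ones, yet the change of -0.18 (SE 0.10) did not pass the test (limma adjusted p 0.213). Syx1A, the syntaxin of the plasma membrane, had 19.3, 15.8 and 20.1 FPKM at 50 days and 29.3, 22.6 and 16.2 FPKM at 3 days. The ages overlapped, since 3-day replicate 3 had less than 2 of the old libraries in deposited FPKM and less than all 3 after scaling, and the change was -0.16 (SE 0.20, limma adjusted p 0.562). Without 3-day replicate 1 it was 0.064, and without 3-day replicate 3 it was -0.36. In the annotation 10.7% of the exon bases of Syx1A are shared with other genes on the same strand, of which eIF4EHP has the largest overlap.

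Rop, cpx, comt and alphaSnap act on SNARE proteins or their complexes. Rop, the Sec1/Munc18 protein that binds syntaxin, had 56.5, 70.96 and 73.3 FPKM at 50 days and 129.5, 111 and 108 FPKM at 3 days (-0.68 ± 0.11 SE on the log2 scale, limma adjusted p 0.00216). cpx encodes complexin, which binds the assembled SNAREs and holds back spontaneous fusion. It had 137, 146 and 157 FPKM at 50 days and 296, 256 and 234 FPKM at 3 days (-0.72 ± 0.11 SE on the log2 scale, limma adjusted p 0.00194). In both, the highest old library was well below the lowest young library. comt encodes NSF, the ATPase that takes used SNARE complexes apart. It had 54.03, 68.7 and 66.0 FPKM at 50 days and 121, 113 and 115.3 FPKM at 3 days, with no overlap (-0.78 ± 0.091 SE on the log2 scale, limma adjusted p 0.000570). alphaSnap, the adaptor that brings NSF to the SNAREs, averaged 168 ± 13.3 FPKM at 50 days and 233 ± 9.95 FPKM at 3 days (SD over 3 libraries each). Its change was -0.36 (SE 0.092, limma adjusted p 0.0155). That call was lost without 50-day replicate 2 (adjusted p 0.0680) and without 3-day replicate 1 (adjusted p 0.0578), and 15% of its exon bases are shared with genes on the other strand.

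Synaptotagmins are a family that includes calcium-binding vesicle proteins. Syt1, the sensor for fast release, had 56.7, 63.2 and 65.7 FPKM at 50 days and 123, 108 and 95.5 FPKM at 3 days. The ages stood apart, and the log2 change was -0.69 ± 0.11 SE (adjusted p 0.00188, limma). Syt4, which acts in retrograde signals across the fly neuromuscular synapse, averaged 96.6 ± 10.2 FPKM at 50 days and 144 ± 4.2 FPKM at 3 days (SD over 3 libraries each) with a log2 change of -0.47 (adjusted p 0.00410, limma). Syt7, which affects the size of the releasable vesicle pool, averaged 58.0 ± 0.505 FPKM at 50 days and 77.4 ± 11.4 FPKM at 3 days (SD over 3 libraries each). Its libraries did not overlap between the ages, but its change of -0.29 (SE 0.12) did not pass the test (limma adjusted p 0.0848). Without 3-day replicate 3 it passed, at -0.38 (adjusted p 0.0383).

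Syngr encodes synaptogyrin, a membrane protein of the vesicle, and had the lowest change of the members. It had 44.9, 60.02 and 55.9 FPKM at 50 days and 123, 102 and 105 FPKM at 3 days, and every old library was far below every young library. The log2 change was -0.92 ± 0.11 SE (adjusted p 0.000728, limma). Csp encodes cysteine string protein, the vesicle chaperone that protects synapses from degeneration. It had 56.9, 61.7 and 66.4 FPKM at 50 days and 125, 113 and 110.3 FPKM at 3 days, again without overlap (-0.79 ± 0.087 SE on the log2 scale, limma adjusted p 0.000456). Sap47, a synapse-associated protein, had 100.03, 109 and 116 FPKM at 50 days and 207, 179 and 174 FPKM at 3 days (-0.67 ± 0.10 SE on the log2 scale, limma adjusted p 0.00157). Syn encodes synapsin, which tethers vesicles in the reserve pool. It averaged 64.05 ± 6.64 FPKM at 50 days and 94.9 ± 3.84 FPKM at 3 days (SD over 3 libraries each) with a log2 change of -0.46 (adjusted p 0.00392, limma).

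Frq1 and Frq2 encode Frequenins, close paralogues of the neuronal calcium sensor family. Both lie on the plus strand of the X chromosome, Frq1 at 18155369 to 18174744 and Frq2 at 18177612 to 18204407 in the annotation, with 2867 bases between them. Frq2 had 9.16, 10.5 and 9.89 FPKM at 50 days and 22.1, 18.6 and 19.3 FPKM at 3 days. The ages did not overlap, and the log2 change of -0.85 ± 0.089 SE (adjusted p 0.000380, limma) had the smallest adjusted p of the members. Frq1 averaged 19.9 ± 1.62 FPKM at 50 days and 29.7 ± 5.28 FPKM at 3 days (SD over 3 libraries each) with a log2 change of -0.44 (adjusted p 0.0226, limma). Leaving out any 50-day library or 3-day replicate 2 ended the call of Frq1, with adjusted p of 0.0514 to 0.0680. The split of reads between these paralogues is uncertain. Cadps, which acts in the release of dense-core vesicles, had 52.3, 51.96 and 54.99 FPKM at 50 days and 103, 81.4 and 74.4 FPKM at 3 days. It lay among the called members in size, at -0.57 ± 0.13 SE on the log2 scale (adjusted p 0.00914, limma).

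Every endocytosis gene with a row was lower in all old libraries than in all young ones, which held for 28.3% of all genes tested. shi encodes dynamin, the GTPase that pinches vesicles from the membrane. It had 62.6, 71.3 and 70.2 FPKM at 50 days and 124, 107 and 98.2 FPKM at 3 days (-0.57 ± 0.10 SE on the log2 scale, limma adjusted p 0.00380). EndoA encodes endophilin, which bends the membrane and recruits synaptojanin. It had 55.9, 61.7 and 64.1 FPKM at 50 days and 101, 98.2 and 96.7 FPKM at 3 days (-0.59 ± 0.076 SE on the log2 scale, limma adjusted p 0.000844). Synj encodes synaptojanin, the lipid phosphatase that lets the clathrin coat come off. It had 17.8, 19.6 and 20.7 FPKM at 50 days and 29.8, 29.5 and 28.8 FPKM at 3 days, with a log2 change of -0.47 and the smallest standard error of the members (SE 0.069, limma adjusted p 0.00147).

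Adaptors that gather cargo and clathrin were called lower too. lap encodes the clathrin assembly protein AP180. It had 44.5, 48.8 and 49.8 FPKM at 50 days and 78.4, 68.3 and 67.0 FPKM at 3 days (-0.46 ± 0.089 SE on the log2 scale, limma adjusted p 0.00495). AP-2alpha, a large subunit of the AP-2 adaptor complex, had 32.1, 35.1 and 34.1 FPKM at 50 days and 50.4, 48.97 and 46.4 FPKM at 3 days (-0.41 ± 0.074 SE on the log2 scale, limma adjusted p 0.00373). The old libraries sat close together and below the young ones in both genes. Dap160 encodes intersectin, a scaffold of the endocytic zone. It had 17.7, 20.95 and 21.3 FPKM at 50 days and 28.8, 27.1 and 23.5 FPKM at 3 days, and its change of -0.29 (SE 0.092) passed narrowly (limma adjusted p 0.0406). That call was lost in 9 of the 16 fits with other settings or a library left out, including those without any 50-day library and without 3-day replicate 1 or 2 (adjusted p 0.0752 to 0.143).

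Ratios between members within a library do not depend on the library factor, and 12 such ratios, chosen after values had been seen, are given as levels per length. In 8 of them the ages did not overlap. The same count over other pairs of genes was not made, so it is not known whether 8 is many. Among single genes tested, 28.3% were lower without overlap of the ages and 26% were higher without overlap. Syt7 over Syt1 was 0.942 ± 0.0813 at 50 days and 0.710 ± 0.0194 at 3 days (SD over 3 libraries each). nSyb over Snap25 was 0.861 ± 0.0554 at 50 days and 0.675 ± 0.0471 at 3 days, and cpx over nSyb was 0.798 ± 0.0524 at 50 days and 1.17 ± 0.0902 at 3 days. Thus cpx stood below nSyb in level per length in every old library and above it in every young library. Which gene of a pair stands higher depends on the gene lengths used. comt over alphaSnap was 0.375 ± 0.0315 at 50 days and 0.501 ± 0.00772 at 3 days, and Frq2 over Frq1 was 0.496 ± 0.0181 at 50 days and 0.681 ± 0.0841 at 3 days. Syt4 over Syt1 was 1.56 ± 0.0648 at 50 days and 1.33 ± 0.131 at 3 days, and Rim over Rbp was 0.849 ± 0.0141 at 50 days and 0.887 ± 0.02 at 3 days. Liprin-alpha over brp was 0.616 ± 0.0308 at 50 days and 0.427 ± 0.0792 at 3 days. The ages overlapped for the ratios of unc-13 over brp, Syx1A over Snap25 and Syx1A over Rop (exact permutation p 0.20 each, 0.218 adjusted) and for shi over EndoA, which was 1.12 ± 0.0306 at 50 days and 1.11 ± 0.106 at 3 days (exact permutation p 0.80). The two-sided exact permutation p was 0.10 for each ratio without overlap, the smallest that 3 libraries against 3 can give, and 0.15 after adjustment over the 12 ratios, so none passed.

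In the order of mean levels per length among the 31 genes, Snap25 was first at both ages, nSyb ranked 2 at 50 days and 4 at 3 days, and cpx ranked 4 at 50 days and 2 at 3 days. Syngr ranked 17 at 50 days and 12 at 3 days, and shi ranked 8 at 50 days and 13 at 3 days. The lowest level was that of Frq2 at 50 days and that of Liprin-alpha at 3 days.

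**Figure D3:**
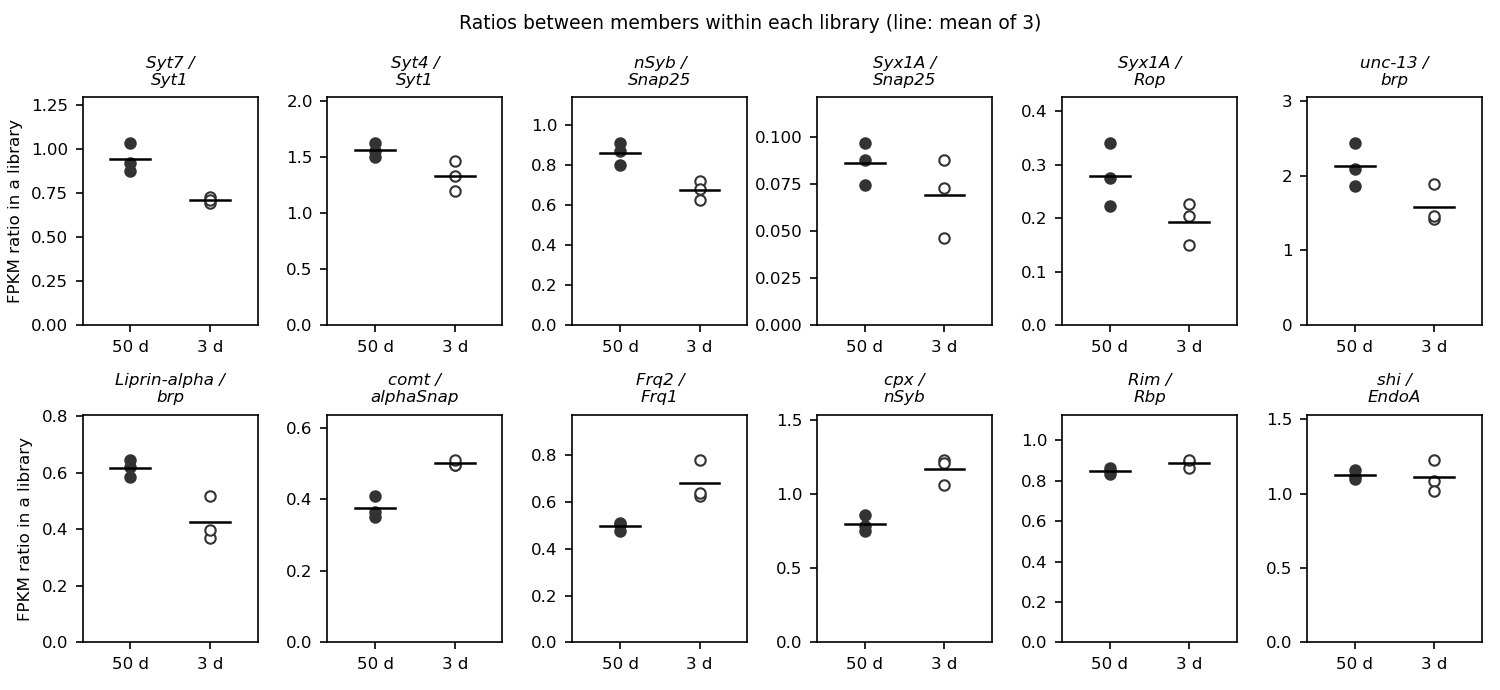
Ratio of FPKM between 12 pairs of members in each library, with 50-day libraries left (filled) and 3-day libraries right (open) and a line at the mean of 3. The ratio cpx over nSyb lies under 1 in all 50-day libraries, at 0.753 to 0.856, and over 1 in all 3-day libraries, at 1.06 to 1.23.

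Other genes of the same pathway, from a list of 43 that excludes the members, are given beside them. Of the 42 with a row, 18 were called lower and 2 higher, with a median log2 change of -0.20. The called shares were 7 of 14 in the active zone list, all lower, 7 of 14 in the exocytosis list, 5 of them lower, and 6 of 14 in the endocytosis list, all lower. Over all genes in that fit 39.1% were called, 20.8% lower and 18.3% higher. The shares of these lists called in either direction lay close to that of all genes. The split by direction was unlike that of all genes, with 18 called lower and 2 called higher. Among those called with a change of at least 0.5, AP-2mu and AP-2sigma belong to the same adaptor complex as AP-2alpha. AP-2mu had 17.8, 21.9 and 20.6 FPKM at 50 days and 49.2, 42.3 and 42.4 FPKM at 3 days (-1.01 ± 0.093 SE on the log2 scale, limma adjusted p 0.000219). AP-2sigma changed by -0.71 (limma adjusted p 0.000566), so all 3 AP-2 subunits listed were lower. Clathrin itself was not called, with changes of -0.046 for the heavy chain Chc (adjusted p 0.709) and 0.099 for the light chain Clc (adjusted p 0.367).

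The rest of that set were nwk, which encodes an F-BAR protein of nerve terminals (-0.89, limma adjusted p 0.000877), and fwe, which encodes a vesicle protein linked to endocytosis (-0.86, adjusted p 0.000496). Amph, the amphiphysin gene, changed by -0.55 (adjusted p 0.00132) and gammaSnap1, a partner of NSF, by -0.54 (adjusted p 0.00105). The calcium channel gene of the active zone, cac, was called lower at -0.32 (adjusted p 0.0113). The 2 genes called higher, named after their values were seen, were Nsf2 and Esyt2. Nsf2, the second NSF gene of the fly, had 17.7, 17.96 and 17.3 FPKM at 50 days and 14.2, 15.6 and 15.2 FPKM at 3 days (0.32 ± 0.077 SE on the log2 scale, limma adjusted p 0.0122), opposite in direction to comt. Esyt2, an extended synaptotagmin that joins endoplasmic reticulum and plasma membrane, changed by 0.41 (adjusted p 0.0113). With each library rescaled to the same sum, 26 of the 42 genes were called, all lower, so neither of the 2 was called higher there. On that scale 35.7% of all genes tested were called lower and 8.38% higher, 44.1% in all.

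**Figure D4:**
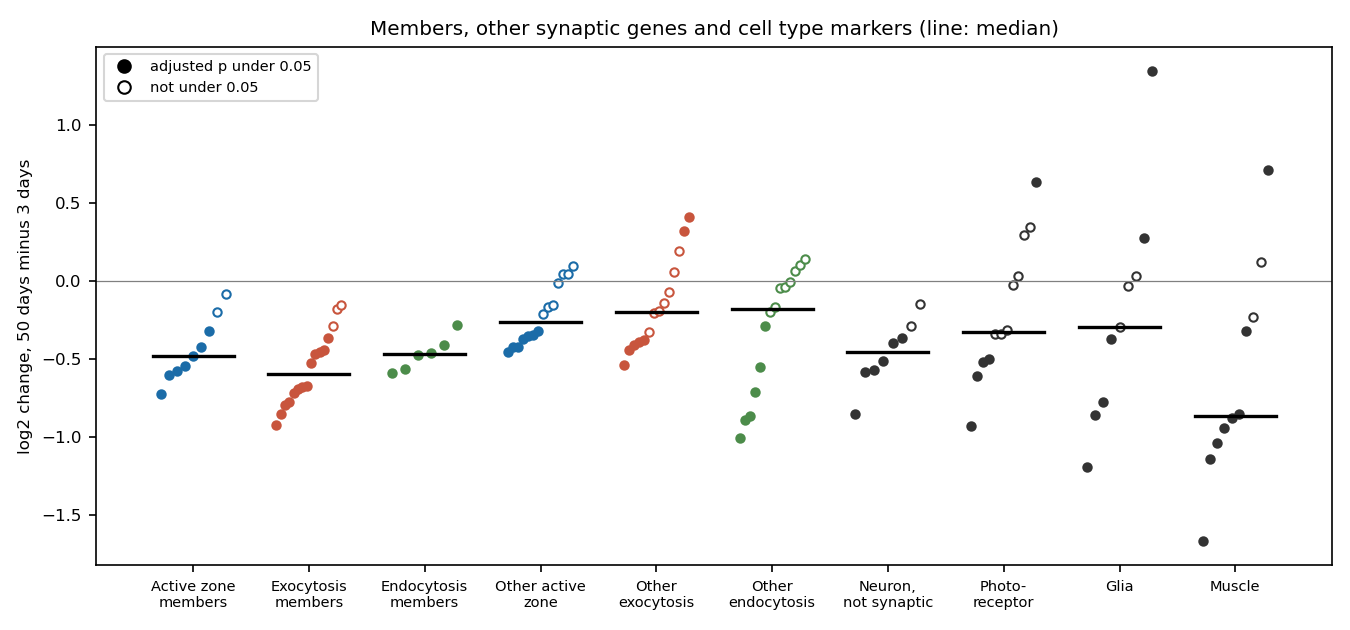
Log2 change, 50 days minus 3 days, of each tested gene of the members, the other synaptic genes and 4 marker lists; filled points have an adjusted p under 0.05 and the line is the list's median. Medians are -0.48, -0.60 and -0.47 in the 3 member parts and -0.46 in the neuronal markers that are in none of the synaptic lists.

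Markers of cell types in the head were counted in the same fit, where 39.1% of all genes tested were called in either direction, 20.8% lower and 18.3% higher. All 8 neuronal markers, which are in none of the synaptic lists, were lower, 6 of them called, with a median log2 change of -0.46. Some of them, such as CadN and futsch, may also act at synapses. Their sums were 368.5 to 391 scaled FPKM at 50 days against 535 to 678 scaled FPKM at 3 days. Of 12 photoreceptor markers 4 were called lower and 1 higher (median -0.33), and their sums overlapped, at 23790 to 28000 scaled FPKM at 50 days and 25380 to 28640 scaled FPKM at 3 days. Of 9 glial markers 4 were called lower and 2 higher (median -0.29), with sums of 826 to 853 scaled FPKM at 50 days and 1123 to 1315 scaled FPKM at 3 days. Of 10 tested muscle markers 7 were called lower and 1 higher (median -0.86), with sums over all 11 rows of 968 to 1104 scaled FPKM at 50 days and 1577 to 2658 scaled FPKM at 3 days. Of 7 fat body markers 4 were called higher and none lower (median 1.55), with sums of 36090 to 67350 scaled FPKM at 50 days and 12760 to 27810 scaled FPKM at 3 days. Of 6 tested hemocyte markers 2 were called lower (median 0.22), with overlapping sums over all 7 rows of 50.4 to 69.7 scaled FPKM at 50 days and 68.1 to 111 scaled FPKM at 3 days. Such sums follow their most abundant genes, such as ninaE in the photoreceptor list and nrv3 in the neuronal list. No gene of these lists was at 0 in every library, and the part of these differences in the change of the members was not tested.

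Relative to the bulk of genes, the median log2 changes of the synaptic members and of the 8 neuronal genes were -0.48 and -0.46. Library factors taken from those 8 genes, a choice made after seeing the data, move every gene up by about the same amount (median of all genes 0.38), so the members come near 0 by construction and the counts on that scale restate these medians. There, 4 members were called lower and 1 higher, and the median log2 change of the 31 was -0.076. Over all genes tested on that scale, 4.98% were called lower and 56.1% higher, 61% in all. The 4 lower members were Syngr (-0.50, limma adjusted p 0.0154), Frq2 (-0.45, adjusted p 0.00861), Csp (-0.37, adjusted p 0.0229) and comt (-0.35, adjusted p 0.0453). Liprin-alpha was called higher on that scale, at 0.32 (adjusted p 0.0168). The 8 neuronal genes themselves ran from -0.43 to 0.27 there, with 1 called lower and 1 higher. The changes of Csp and comt lay within that range.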

How the data were processed

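The 35 members and all gene lists were chosen with earlier results of these data known. Per the labels' protocols, polyadenylated RNA from 20 female heads per sample was sequenced as paired-end reads of 150 bases. The submitters' processing notes list fastp, HISAT2, HTSeq and the build BDGP6, with no versions. The deposited values are not whole numbers and are read here as FPKM, which the authors had scaled for length and depth. TPM summed over more genes cannot be told apart from this, and folds and tests would stay as they are. The step that made them is not given in the sources used here. All 6 columns were matched to samples by library name.

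Library factors were trimmed means of log2 ratios to the first 3-day library over genes above 1 FPKM in both (30% trimmed from each end of the ratios, 5% of the levels). Genes whose scaled values averaged 1 FPKM or more were fitted as log2(FPKM + 1) with limma 3.58.1 in R 4.3.3 (lmFit, eBayes with its variance trend) on age alone, without a covariate. Its p-values were then adjusted (Benjamini-Hochberg) across every gene in the fit. Fold changes on that scale understate changes of low genes. The fit was tested on simulated data. Nothing in the labels says that replicates are separate cultures of flies beyond calling them biological triplicates. All members were named; values in every library are given for called members, up to the 8 with the smallest p per part, and for 8 core genes. Other synaptic genes were named when called with a change of at least 0.5, and cac, Chc, Clc, Nsf2 and Esyt2 were named after their values were seen. Levels, SD and locations come from the deposited table and the Ensembl BDGP6.54 annotation, to which 10896 of 11923 symbols matched directly and 1002 through a synonym. Sums and ratios of means use scaled values. Alternatives are given in the closing section.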

Additional observations from a re-analysis of the deposited data

How the results depend on the processing

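Of 496 member results under 16 other settings (scaling, filters, pseudocount, length trend, replicate block and 1 library left out), 466 kept direction and call, 19 lost a call, 8 gained a call and 3 turned direction. Of the 26 called members, 21 were called lower in all 16. These counts were not made over all genes, so it is not known whether such stability is particular to the members. The counts called ran from 2619 to 3718 over all genes, 23 to 27 over members, 6 to 7 in the active zone, 11 to 14 in exocytosis, 5 to 6 in endocytosis and 15 to 25 over the other synaptic genes when 1 library was left out, and the member median from -0.56 to -0.44. The median of all genes shifted by -0.26 when libraries were rescaled to the same sum and by -0.15 when the 10 most abundant genes were left out first; the member medians were then -0.75 and -0.64, with 29 and 28 called, beside 44.1% and 38.7% of all genes. Removing the length trend gave 24 member calls, beside 42.0% of all genes, with Liprin-alpha at 0.057 and unc-13 at 0.0077, and Syx1A ran from -0.36 to 0.064 when 1 library was left out, turning without 3-day replicate 1. With factors from 8 neuronal genes, an alternative added after seeing the data, 5340 genes (61%) were called, 5 members (1 active zone, 4 exocytosis, 0 endocytosis; 22 members had a change below 0), and the member median was -0.076. On that scale the changes above 0 were 0.32 for Liprin-alpha, 0.22 for unc-13, 0.078 for Fife, 0.25 for nSyb, 0.25 for Syx1A, 0.13 for Syt7, 0.063 for alphaSnap, 0.012 for AP-2alpha and 0.13 for Dap160. Equal replicate numbers did not pair the libraries (correlations of their deviations -0.209, -0.104 and -0.235). With the replicate block, 2702 genes (30.9%) and 24 members were called, without alphaSnap (adjusted p 0.0585) and Dap160 (adjusted p 0.0942). Depth is not stated, so precision rests on 3 libraries per age.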
